A study of Mus musculus with 18 samples.

Results

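Undifferentiated RIPK3-/- 3T3-L1 cells were compared with undifferentiated control cells of the same line, 3 libraries against 3, out of 18 libraries in the series. 3T3-L1 is a mouse embryonic fibroblast line committed to the fat cell lineage and is widely used as a culture model of preadipocytes. The 6 libraries were taken by title (J0RIPK3 and J0CTL). Both groups are untreated, J0 marks the undifferentiated state, and the labels separate them by genotype alone, RIPK3-/- or CTL. The series also holds MLKL-/- cells at J0 and all 3 genotypes at J7, the differentiated state, each as 3 libraries of total RNA. The labels used here do not say how the knockout was made, what the control cells carry, whether a genotype is 1 clone, or whether the libraries of a group came from separate cultures. The p-values therefore measure the spread between these libraries, which may be technical, and a difference between 2 lines cannot be told apart from the loss of RIPK3.

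RIPK3 is a kinase that, once assembled with RIPK1, ZBP1 or TRIF through its RHIM domain, phosphorylates the pseudokinase MLKL. Phosphorylated MLKL permeabilises the plasma membrane, which is the form of lytic cell death called necroptosis. Caspase-8 with cFLIP restrains the pathway, and preadipocytes that leave the cell cycle and receive hormonal signals turn on PPARγ and C/EBPα and become fat cells.

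Read counts in all 6 libraries were given for 11905 genes of the 15194 listed anywhere in the series, and 11044 passed the filter on low counts. The libraries held 22946671 to 36936478 counted reads, so 1 CPM (1 count in 1000000 reads of the library) stood for at least 22.9 reads. Up to 91.7% of a library's reads fell in the genes of the series with counts given for that library. The deposited tables list only genes that the authors called changed in some comparison, so the share of genes called below is higher than over the whole transcriptome. All 10 fibroblast markers examined were detected, led by Col1a2, Vim and Col3a1, and their summed level was 26133 to 27771 CPM in control and 28687 to 28825 CPM in knockout libraries. Of 11 macrophage markers 4 had counts, with Ptprc and Adgre1 not among them, and their sum was 87.2 to 93 CPM in control against 45.9 to 51.6 CPM in knockout libraries, most of it Lyz2. Neural and glial markers summed to 61.8 to 62.6 CPM against 84.8 to 88.6 CPM, and osteoblast markers to 84.8 to 90.3 CPM against 103 to 111 CPM. Chondrocyte markers, of which 2 of 7 had counts, summed to 236 to 265 CPM against 222 to 231 CPM. Endothelial, epithelial, smooth muscle and skeletal muscle markers with counts each summed to at most 13.3 CPM in any library. Counts were given for 4 of 10 endothelial, 8 of 11 epithelial, 3 of 6 smooth muscle and 4 of 14 skeletal muscle markers. For neural and glial markers it was 7 of 11, and for osteoblast markers 7 of 8. The level of a marker without counts is not known here, so these sums are partial. The part of these other cell types in the results was not tested, and in bulk RNA fewer cells of a type cannot be told apart from less RNA per cell.

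Ripk3 itself was still transcribed in the knockout libraries. Its level was 19.6, 16.8 and 18.3 CPM in the control libraries and 14.7, 17.3 and 15.8 CPM in the knockout libraries. The ranges of the groups overlapped, and the log2 fold change was -0.22 ± 0.08 (SE; adjusted p = 0.0216, edgeR's quasi-likelihood test). The call was lost without control replicate 1 (adjusted p = 0.12) and without knockout replicate 1 (adjusted p = 0.108) or 3 (adjusted p = 0.0524). A count over the whole gene does not show whether the transcript still codes for the protein, so this value does not check the label. The libraries labelled MLKL-/- had less Ripk3 RNA than those labelled RIPK3-/-, at 7.45 ± 1.87 CPM (SD, n = 3), and the direct test gave a log2 difference of 1.05 in favour of the RIPK3-/- libraries (adjusted p = 0.00134).

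Among the genes of the necroptosis pathway, Ripk3 included, 4 of 13 tested were higher and 5 lower, with a median log2 fold change of -0.06. Across all 11044 genes tested, 55.8% were called at an adjusted p under 0.05, 28.3% higher and 27.4% lower, with a median of -0.01. The counts of called genes in every list below stand against these shares. The largest change in the list was in Zbp1, the sensor of Z-form nucleic acid that recruits RIPK3. Zbp1 stood at 1.98, 1.82 and 1.53 CPM in control and at 0.591, 0.479 and 0.812 CPM in knockout libraries, 2.75-fold lower without overlap (log2 fold change -1.48 ± 0.26, adjusted p = 4.32e-05). Tlr3, the endosomal receptor for double-stranded RNA that reaches RIPK3 through TRIF, was 1.28-fold lower. Mlkl was 1.16-fold lower (log2 fold change -0.25 ± 0.08, adjusted p = 0.00872), a call lost without replicate 2 of either group (adjusted p = 0.0501 and 0.0551). Casp8 and Cflar, the brakes on necroptosis, were 1.23-fold and 1.11-fold higher, and Pgam5, a mitochondrial phosphatase placed downstream of RIPK3, was 1.24-fold higher.

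Most differences between the lines were small. Of the 6159 genes called, 646 (5.85% of those tested) passed an absolute log2 fold change of 1, with 320 higher (2.9%) and 326 lower (2.95%). The ranges of the groups did not overlap for 60.9% of genes, with the knockout libraries all above the controls for 33.4% and all below for 27.4%. Among genes that the authors list for both differentiation contrasts, whatever they found here, 4796 of 9672 tested were called (49.6%), 25.3% higher and 24.2% lower. Among the 5929 tested genes that the authors' table of this comparison does not list, 18.1% were called. All 5115 genes of the authors' deposited table that were tested here had the same sign as there, and 5083 of them were called.

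Among the genes with the largest differences, some were near 0 in one of the lines and others were expressed in both. Adcy1, an adenylyl cyclase that makes cAMP, stood at 5.43, 6.41 and 5.61 CPM in control and at 0, 0.0436 and 0.0812 CPM in knockout libraries, 124-fold lower (log2 fold change -6.85 ± 0.33, adjusted p = 3.88e-14). Gria3, a subunit of the AMPA glutamate receptor, went from 11, 9.12 and 8.76 CPM to 85.6, 88.7 and 89 CPM, 9.03-fold higher. No library of one group came near the other for either gene. Kcnc2, a voltage-gated potassium channel, was 14.9-fold higher, from 0.23, 0.617 and 0.686 CPM to 6.93, 7.06 and 7.55 CPM.

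The other genes at the top of the range were expressed at 1 to 10 CPM in the group with more. Hpse, the heparanase that cleaves heparan sulfate, went from 0.0575, 0.0686 and 0.0404 CPM to 2.56, 2.31 and 2 CPM, 39.9-fold higher (log2 fold change 5.21 ± 0.40, adjusted p = 1.23e-10). Hoxa10, a posterior HOX factor, was 9.99-fold higher. The matricellular protein gene Ctgf was 7.52-fold higher, and the bicarbonate transporter gene Slc4a4 7.46-fold higher. Tmtc2, Abcc12 and Slc27a6 were higher by 9.85-fold, 6.54-fold and 6.24-fold. In the lower direction, Ppp1r26 fell 30-fold, the glycosyltransferase gene Mgat4c 20.5-fold, the protease inhibitor gene Tfpi2 16.9-fold and the glucuronosyltransferase gene Ugt2b5 16.9-fold. Trpc5os, 60.1-fold lower, lies antisense to Trpc5, and reads of overlapping genes cannot be told apart where strand was not counted. Gbp4, Gbp9, Oas1g and Gm4951, also among the 10 lowest, belong to families induced by interferon and are described with them.

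**Figure D1:**
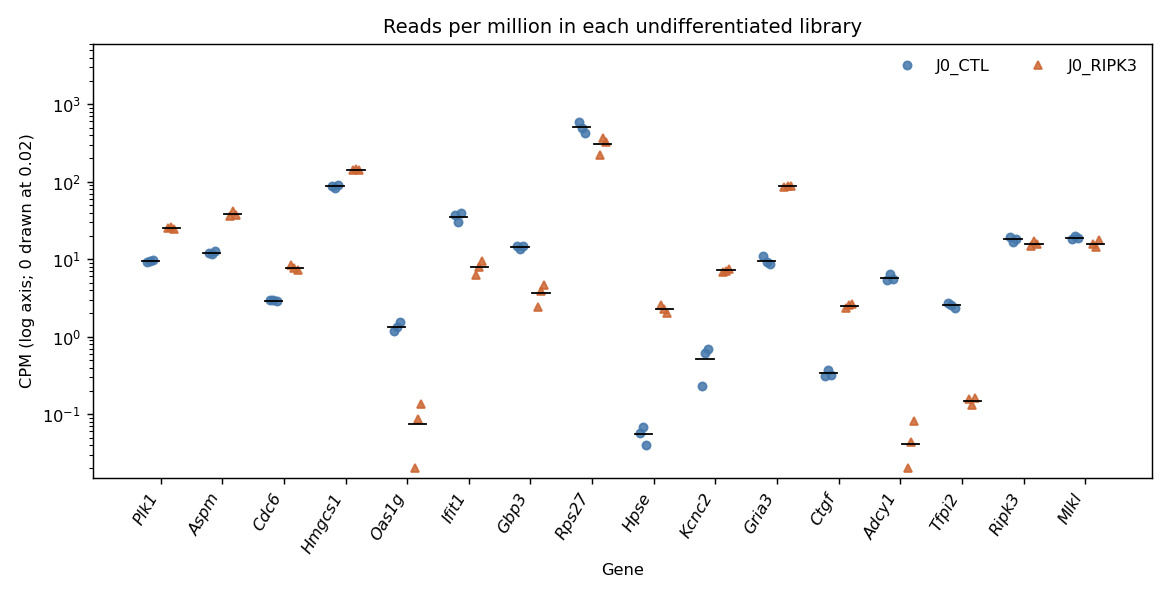
CPM of selected genes in each of the 3 control and 3 knockout libraries, on a log axis with 0 drawn at 0.02 and black lines at the group means. The control and knockout points of Adcy1, Gria3 and Ifit1 lie apart without overlap, whereas those of Ripk3 overlap.

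Genes of DNA replication and of mitosis were higher in the knockout cells throughout. All 45 replication genes tested were higher, with a median log2 fold change of 0.66, and no member of the lists of cyclins, mitotic kinases, kinetochore, spindle or homologous recombination was lower. Of the cyclins, CDKs and E2F factors 26 of 30 were higher (median 0.49), of the mitotic kinases and checkpoint genes 21 of 22 (median 1.09), of the kinetochore genes 29 of 33 (median 0.89), and of the spindle and cytokinesis genes all 27 (median 1.22). These shares stand against 28.3% of all genes called higher. Among genes listed for both differentiation contrasts, all 29 replication genes and all 19 spindle genes tested were higher. Homologous recombination and Fanconi genes were higher in 22 of 25 (median 0.82), and condensin, cohesin and S phase chromatin genes higher in 18 of 22 and lower in 2 (median 0.51). Few of these genes lie on chromosomes 5 and 18, whose genes were higher on the whole (below), and on the other chromosomes the medians were 0.61 for replication over 37 genes and 1.21 for the spindle over 24 genes.

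At the start of replication, Cdc6, which loads the MCM helicase onto origins, stood at 2.96, 2.98 and 2.87 CPM in control and at 8.5, 7.76 and 7.17 CPM in knockout libraries. The groups did not overlap, and Cdc6 was 2.63-fold higher (log2 fold change 1.38 ± 0.13, adjusted p = 2.92e-09). Clspn, an adaptor of the replication checkpoint, was 2.81-fold higher and Rrm2, the regulated subunit of ribonucleotide reductase, 2.41-fold higher. The atypical repressors E2f7 and E2f8, themselves induced in S phase, were 2.58-fold and 2.73-fold higher. Ccna2, the cyclin of S and G2 phase, was 2.59-fold higher and Cdc25c, the phosphatase that activates CDK1 for mitosis, 2.84-fold higher.

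The mitotic lists had the larger medians. Plk1, the kinase that drives mitotic entry and spindle assembly, rose from 9.2, 9.36 and 9.65 CPM to 25.4, 25.9 and 24.9 CPM, 2.7-fold higher (log2 fold change 1.41 ± 0.07, adjusted p = 1.2e-13). Aurka, the centrosomal Aurora kinase, rose from 8.62, 7.82 and 7.47 CPM to 21.9, 21.8 and 19 CPM. Aspm, a spindle pole protein, rose from 12, 11.6 and 12.8 CPM to 36.3, 41.6 and 37.2 CPM, 3.16-fold higher. For all 3 genes the highest control library lay below the lowest knockout library. Kinetochore genes included Ska1 (5.76-fold), Cenpm (3.04-fold), Knl1 (2.79-fold) and Nuf2 (2.77-fold), which join microtubules to centromeres. The motors Kif20a and Kif14, which act in cytokinesis, were 2.89-fold and 2.88-fold higher. Top2a, which untangles chromosomes, was 2.43-fold higher and Mki67, the common proliferation marker, 2.58-fold higher. The cohesin subunits Smc3 and Stag1, which cells express in every phase, were lower by 1.07-fold and 1.15-fold. In repair, Brip1, Bard1, Fancd2 and Fanca, which act with BRCA1 or in the Fanconi pathway, were between 2.32-fold and 2.77-fold higher.

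The brakes on the cycle did not move in one direction. Of 6 CDK inhibitors, 3 were higher and 1 lower. Cdkn2c, an inhibitor of CDK4 and CDK6, was 1.91-fold higher, and Cdkn2a, the gene of p16 and ARF, 1.17-fold higher at a control mean of 425 CPM. Cdkn1a, the gene of p21, was 1.06-fold lower. Of 21 p53 targets 8 were higher and 6 lower with a median of 0.02, against 28.3% and 27.4% of all genes. Gdf15, a stress cytokine, was 2.69-fold higher, and Plk2, a kinase of centriole duplication, 1.39-fold higher. Bbc3, the gene of the killer protein PUMA, was 1.2-fold lower and Trp53inp1, a p53 cofactor, 1.22-fold lower. In the authors' deposited enrichment table, 50 of 319 pathways had an adjusted p under 0.05. There the cell cycle pathway counted 77 genes, 68 up and 9 down (adjusted p = 8.03e-06), and DNA replication 28 genes, all up (adjusted p = 3.28e-05).

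**Figure D2:**
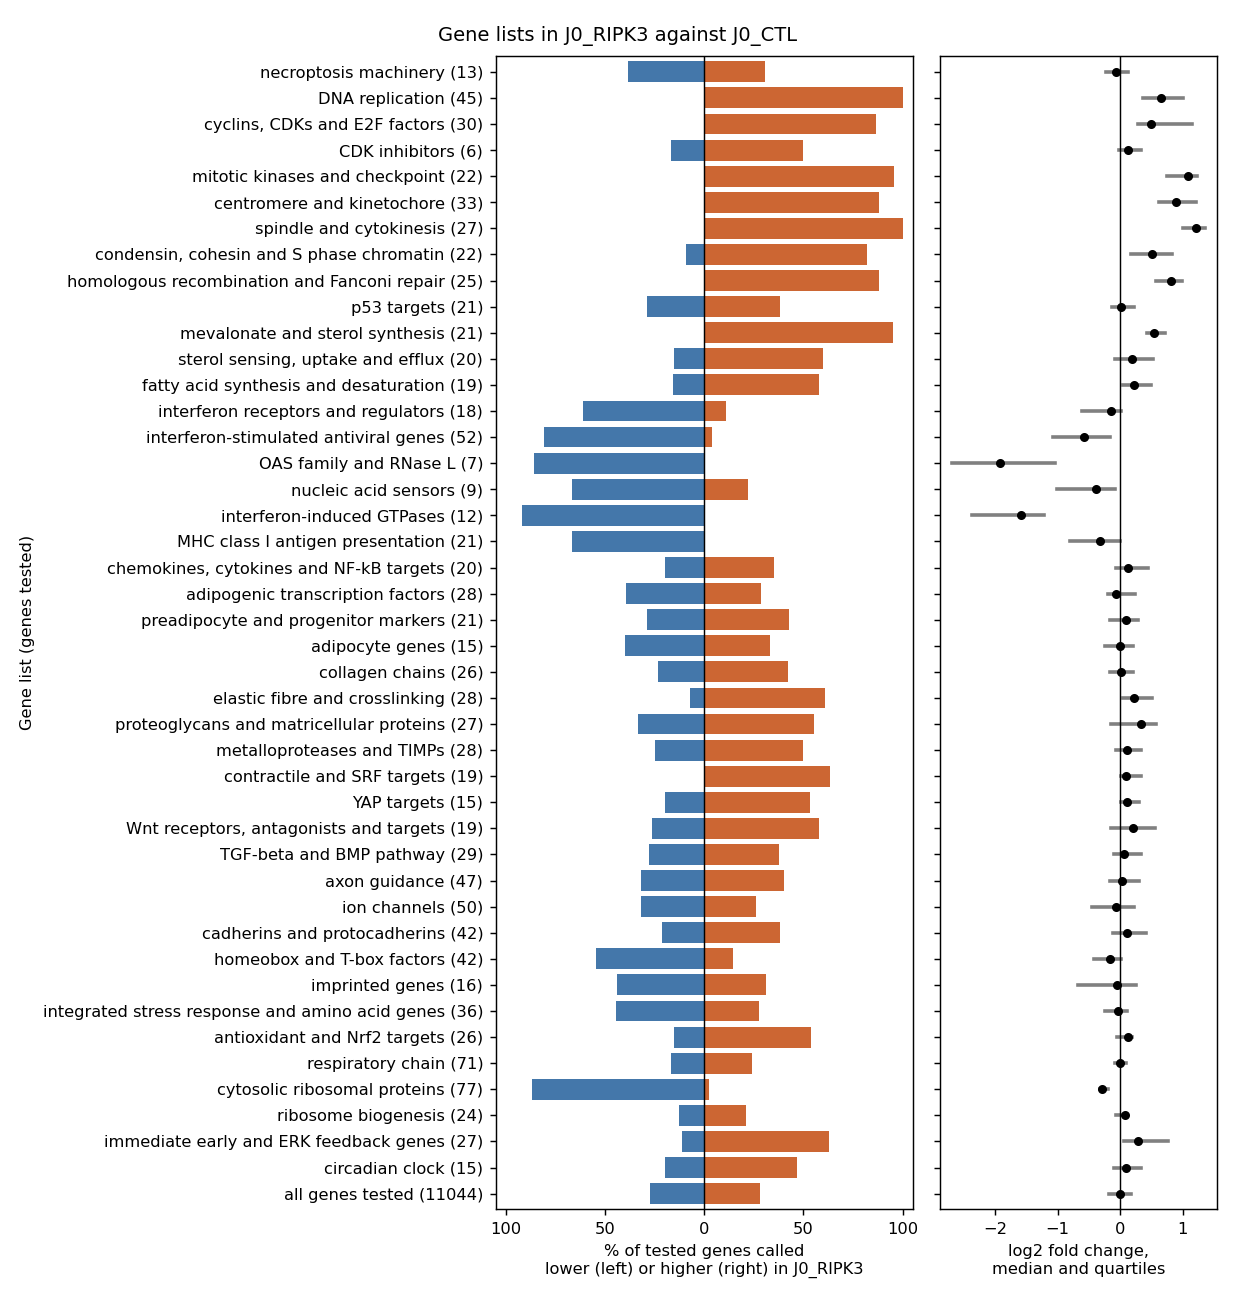
The left panel gives the percent of tested genes of each list called lower (blue bars, to the left) or higher (orange bars, to the right) in the knockout libraries, and the right panel the median log2 fold change (points) with the range between the quartiles (grey lines). Spindle, mitotic kinase and replication medians lie to the right of 0, and those of the OAS, interferon-induced GTPase and interferon-stimulated lists to the left.

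Promoter windows of these genes, from 250 bases before to 50 bases after the start site, were read from RefSeq on GRCm38.p6, the patch release of mm10. They were searched on both strands for the cell cycle homology region (CHR, TTTGAA), the CCAAT box (CCAAT) and the E2F site (TTTCCCGC or TTTGGCGC). The CHR is bound by the DREAM complex and by MuvB with B-MYB and FOXM1, which hold mitotic genes down in quiescence and turn them on in G2. The CHR letters were in 85.2% of the 27 windows of spindle genes called higher and in 66.7% of the 18 windows of mitotic kinase genes called higher, against 12.2% of the 10410 windows of all genes tested and 17.9% of all 32851 windows. CCAAT was in 72.2% of the mitotic kinase windows and in 80% of the 25 kinetochore windows, against 38.1% of those of genes tested. The E2F letters were in 28.2% of the 39 replication windows and in 41.2% of the 17 condensin and chromatin windows, against 2.79%. Over all genes called higher, the CHR letters were in 13.9% of windows, CCAAT in 38.8% and the E2F letters in 3.74%. Most members of these lists were called, so the shares describe the lists and not the comparison. A match describes these letters in this window and not a bound site. The windows of 4 genes described above are shown because they carry these letters near the start site, with the CHR in capitals for Plk1 (chr7:122159185-122159484, plus strand), Aurka (chr2:172370521-172370820, minus strand) and Aspm (chr1:139454523-139454822, plus strand), and the E2F site in capitals for Cdc6 (chr11:98907901-98908200, plus strand).
Plk1: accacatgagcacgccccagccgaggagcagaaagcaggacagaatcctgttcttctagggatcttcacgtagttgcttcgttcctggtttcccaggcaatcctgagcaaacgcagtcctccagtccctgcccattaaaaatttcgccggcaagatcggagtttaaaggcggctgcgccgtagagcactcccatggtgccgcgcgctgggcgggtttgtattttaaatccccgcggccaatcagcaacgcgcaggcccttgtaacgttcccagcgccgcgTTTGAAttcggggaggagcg
Aurka: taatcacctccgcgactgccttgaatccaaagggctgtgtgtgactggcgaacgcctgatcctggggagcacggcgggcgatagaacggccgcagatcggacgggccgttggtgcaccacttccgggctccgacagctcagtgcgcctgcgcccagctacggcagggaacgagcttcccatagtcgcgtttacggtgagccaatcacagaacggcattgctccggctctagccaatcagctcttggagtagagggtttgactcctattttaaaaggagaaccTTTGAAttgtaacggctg
Aspm: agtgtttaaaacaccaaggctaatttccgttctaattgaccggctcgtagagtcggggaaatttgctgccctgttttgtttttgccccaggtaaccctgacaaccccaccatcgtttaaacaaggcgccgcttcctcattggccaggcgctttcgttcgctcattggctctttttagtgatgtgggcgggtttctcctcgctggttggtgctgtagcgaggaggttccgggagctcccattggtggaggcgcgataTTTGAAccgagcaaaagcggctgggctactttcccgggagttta
Cdc6: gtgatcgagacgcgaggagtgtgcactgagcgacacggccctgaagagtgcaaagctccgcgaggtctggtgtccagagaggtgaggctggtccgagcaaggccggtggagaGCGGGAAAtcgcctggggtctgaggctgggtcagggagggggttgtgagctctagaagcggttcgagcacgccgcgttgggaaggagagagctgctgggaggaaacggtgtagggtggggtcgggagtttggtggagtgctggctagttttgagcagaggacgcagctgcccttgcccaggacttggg

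The second large group was the interferon response, which was lower in the knockout cells. The labels name no interferon treatment. Type I interferon acts through IFNAR, JAK1 and TYK2 on a complex that holds STAT2 and IRF9, which binds the interferon-stimulated response element (ISRE) of antiviral genes, and cells keep a low tonic level of this program. Of 52 interferon-stimulated antiviral genes tested, 42 were lower and 2 higher (median log2 fold change -0.58), against 27.4% of all genes called lower. Among OAS family genes 6 of 7 were lower (median -1.93), among interferon-induced GTPases 11 of 12 (median -1.58), and among genes of MHC class I presentation 14 of 21 with none higher (median -0.33). Of the 4 macrophage markers with counts, Lyz2 (2.1-fold) and Cd14 (1.34-fold) were lower, Csf1r was 1.91-fold higher and Cd68 was not called, and their part in these differences was not tested.

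None of the 4 interferon receptor genes of the list was called lower. Ifnar1, a chain of the type I receptor, was 1.12-fold higher and Ifngr2, a chain of the interferon-γ receptor, 1.14-fold higher, and they were the only 2 members called higher among 18 receptors and regulators, of which 11 were lower. Stat2, a transcription factor of this complex, stood at 101 to 108 CPM in control and 64.8, 64.7 and 68 CPM in knockout libraries, 1.58-fold lower. Irf9, the DNA-binding subunit of the complex, was 1.54-fold lower at 54.6, 52.1 and 49.2 CPM against 31.9, 32.7 and 35.9 CPM. Irf9 lies within 5 Mb of Ripk3, on the side toward the centromere. In MLKL-/- cells at J0 Irf9 stood at 32 ± 2.31 CPM (SD, n = 3). The direct log2 difference of RIPK3-/- from MLKL-/- cells was 0.03 (edgeR adjusted p = 0.796). At J7 the log2 fold change of Irf9 against control was 0.23. Whether its position bears on these values was not tested. Irf7, which amplifies type I interferon, was 2.51-fold lower and Irf5 1.95-fold lower. Usp18, the feedback inhibitor of IFNAR and itself an interferon target, was 3.34-fold lower.

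Among the effectors, Ifit1, which binds viral RNA that lacks cap methylation, stood at 37.2, 30.4 and 39.1 CPM in control and at 6.18, 7.98 and 9.61 CPM in knockout libraries. It was 4.35-fold lower (log2 fold change -2.16 ± 0.11, adjusted p = 6.96e-14). Ddx60, a helicase of the antiviral response, fell from 11.7, 11 and 11.1 CPM to 2.05, 1.53 and 2.84 CPM, 5.03-fold lower. The groups did not overlap for either gene. Mx1, a dynamin-like GTPase that blocks influenza virus, was 4.53-fold lower and Sp100, a nuclear body protein, 3.96-fold lower. Plscr1 and Slfn9 were the 2 antiviral genes that were higher, by 1.21-fold and 1.32-fold.

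The OAS enzymes, which make 2′-5′ oligoadenylate and so activate RNase L, fell the most as a family. Oas2 stood at 17.1, 19 and 16.1 CPM in control and at 2.09, 3.05 and 4.68 CPM in knockout libraries, 5.03-fold lower (log2 fold change -2.37 ± 0.15, adjusted p = 5.82e-12). Oas1g, 16.2-fold lower, went from 1.18, 1.34 and 1.53 CPM to 0, 0.0872 and 0.135 CPM. All 6 OAS genes that fell lie on chromosome 5. Of the RNA sensors, Ifih1 (MDA5) was 6.06-fold lower, Dhx58 (LGP2) 2-fold lower and Ddx58 (RIG-I) 1.56-fold lower. Tmem173, the gene of the DNA response adaptor STING, was 1.49-fold higher and lies on chromosome 18.

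Among the GTPases, which attack the vacuoles of intracellular pathogens, Iigp1 fell from 27.2, 28.5 and 27.7 CPM to 2.76, 4.27 and 5.09 CPM, 6.65-fold lower. Gbp9 fell from 7.44, 6.35 and 7.59 CPM to 0.0787, 0.567 and 0.406 CPM, 20.3-fold lower. Gbp4 was 26.7-fold lower from a control mean of 1.28 CPM, and Gm4951, a gene model of the same GTPase family as Iigp1, was 15.9-fold lower from 9.37, 9.95 and 9.12 CPM. The GBP, OAS, IFIT and H2 genes are families of near copies, and reads shared between copies make the count of a single member uncertain. Of the class I genes, H2-K1, a classical heavy chain, was 2.13-fold lower at 41.3, 40 and 43.2 CPM against 17, 18.8 and 21.4 CPM, and Nlrc5, the transactivator of class I genes, 2.4-fold lower. H2-Q4, a non-classical heavy chain, was 9.11-fold lower.

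Chemokines, cytokines and NF-κB targets did not share this direction, with 7 of 20 higher and 4 lower. Cx3cl1, a membrane-bound chemokine, was 1.34-fold higher and Il1rl1, the receptor of IL-33, 1.88-fold higher from 19.8, 22.2 and 18.3 CPM to 36.3, 37.4 and 39.4 CPM. Csf1, the macrophage growth factor, was 1.2-fold lower, Vcam1, an adhesion molecule, 1.12-fold lower and Cxcl1, a neutrophil chemokine, 1.27-fold lower. Ccl5, a chemokine that is also an interferon target, was 2.03-fold lower from a control mean of 2.27 CPM.

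The ISRE letters (GAAA, then any 2 bases, then GAAA, on both strands) were in 48.6% of the 37 promoter windows of antiviral genes called lower and in 85.7% of the 7 windows of GTPases called lower, against 3.06% of the windows of all genes tested. Over all genes called lower, the ISRE letters were in 3.9% of windows. Most members of the antiviral and GTPase lists were called lower, so their shares describe the lists and not the comparison. Ddx60, Ifit1 and Oas1g each held 2 matches close upstream of the start site. Their windows are shown from the same RefSeq build, with the ISRE in capitals, for Ddx60 (chr8:61927837-61928136, plus strand), Ifit1 (chr19:34640639-34640938, plus strand) and Oas1g (chr5:120887564-120887863, minus strand).
Ddx60: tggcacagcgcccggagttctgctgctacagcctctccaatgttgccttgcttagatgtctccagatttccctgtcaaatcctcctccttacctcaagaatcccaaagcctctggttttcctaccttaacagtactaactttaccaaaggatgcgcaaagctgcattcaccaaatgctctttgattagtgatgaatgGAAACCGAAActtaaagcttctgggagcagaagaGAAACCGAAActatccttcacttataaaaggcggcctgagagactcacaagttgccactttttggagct
Ifit1: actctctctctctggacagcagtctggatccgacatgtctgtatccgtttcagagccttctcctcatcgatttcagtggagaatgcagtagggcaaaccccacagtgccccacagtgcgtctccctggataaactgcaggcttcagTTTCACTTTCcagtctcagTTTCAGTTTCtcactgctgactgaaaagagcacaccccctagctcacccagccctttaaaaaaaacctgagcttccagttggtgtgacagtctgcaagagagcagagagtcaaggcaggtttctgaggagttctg
Oas1g: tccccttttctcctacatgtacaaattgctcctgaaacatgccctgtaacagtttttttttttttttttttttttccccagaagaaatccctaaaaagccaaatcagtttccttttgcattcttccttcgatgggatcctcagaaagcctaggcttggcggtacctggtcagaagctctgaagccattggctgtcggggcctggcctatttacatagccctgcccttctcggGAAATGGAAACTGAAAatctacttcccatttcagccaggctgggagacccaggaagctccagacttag

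Cholesterol synthesis was higher as a pathway. Of 21 genes of mevalonate and sterol synthesis, 20 were higher and none lower (median log2 fold change 0.54), and on chromosomes other than 5 and 18 it was 18 of 19 (median 0.53). Cyp51, the lanosterol demethylase, stood at 27.4, 26.4 and 28.3 CPM in control and at 77.6, 80.2 and 77.3 CPM in knockout libraries, 2.86-fold higher (adjusted p = 8.21e-18). It lies on chromosome 5, as does Mvk, the mevalonate kinase, which was 1.69-fold higher. Idi1, the isopentenyl diphosphate isomerase, and Msmo1, a methylsterol oxidase, lie elsewhere and were 1.93-fold and 1.8-fold higher. CCAAT was in 77.8% of the 18 promoter windows of the sterol synthesis genes called higher, against 38.1% of the windows of genes tested. The sterol element letters TCACNCCAC were in only 1 of the 18 windows (5.56%), against 1.21%, so this share rests on 1 window.

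Several genes of sterol uptake and sensing were higher as well. Stard4, a sterol carrier, was 1.93-fold higher, Insig1, the sterol-responsive anchor of SCAP, 1.84-fold higher, and Scarb1, the receptor of high-density lipoprotein, 2.64-fold higher. Scap, the escort of SREBP, was 1.1-fold lower, and Nr1h2, a liver X receptor, 1.17-fold lower. Of the sterol exporters, Abca1 was higher (log2 fold change 0.49) and Abcg1 2.06-fold lower from a control mean of 1.39 CPM. In all 12 of 20 such genes were higher and 3 lower (median 0.19), but 4 of the 12 lie on chromosomes 5 and 18, and over the 16 genes on other chromosomes the median was 0.07. Of 19 fatty acid synthesis genes 11 were higher and 3 lower (median 0.22). Elovl6 and Elovl5, which elongate fatty acids, were 1.64-fold and 1.45-fold higher, and Acsl3, an acyl-CoA synthetase of lipid droplets, 1.48-fold higher.

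Preadipocyte and fat cell genes differed gene by gene. Of 28 adipogenic transcription factors 8 were higher and 11 lower (median -0.06), against 28.3% and 27.4% of all genes. Ebf2, a factor of the brown fat lineage, was 3.02-fold higher at 4.05, 5.18 and 5.17 CPM against 13.9, 15.3 and 13.9 CPM. Cebpa, the gene of C/EBPα, was 1.81-fold higher at 16.3, 16.2 and 18.3 CPM against 30.1, 30.8 and 30.5 CPM (adjusted p = 1.93e-10). Klf2, which represses Pparg, was 1.86-fold higher and Hes1, a Notch target, 1.72-fold higher. Zfp423, a zinc finger factor that commits cells to the fat lineage, fell from 19.1, 17 and 20.5 CPM to 12.4, 10.4 and 11.1 CPM, 1.66-fold lower. Zfp467, which favours fat over bone, was 1.42-fold lower, and Klf4, an early inducer of C/EBPβ, 1.29-fold lower. Of 21 progenitor markers 9 were higher and 6 lower. Anxa3 was 1.82-fold higher at 53.1, 54 and 51.6 CPM against 92.3, 98.5 and 97.7 CPM. Pi16, a marker of early progenitors, was 1.31-fold lower, Eng, a TGF-β co-receptor, 1.67-fold lower, and Nes, an intermediate filament of stem cells, 8.36-fold lower from a control mean of 1.27 CPM. Of 15 fat cell genes 5 were higher and 6 lower. Lpl, the lipoprotein lipase, was 1.13-fold higher, the fatty acid carriers Fabp4 and Fabp5 were 1.43-fold and 1.36-fold higher, and the lipases Lipe and Pnpla2 were 1.34-fold and 1.18-fold lower.

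In the extracellular matrix, single genes changed more than the lists did. Collagen chains were higher in 11 of 26 and lower in 6 (median 0.02). Col8a1, a short-chain collagen, rose from 11.8, 12.3 and 12.5 CPM to 43.4, 47.4 and 42.6 CPM, 3.62-fold higher (log2 fold change 1.84 ± 0.06, adjusted p = 1.1e-16). Col28a1 was 3.07-fold higher and Col11a1, a regulator of fibril diameter, 2.74-fold higher. Col18a1, the source of endostatin, was 1.32-fold lower and Col20a1 1.38-fold lower. Elastic fibre and crosslinking genes were higher in 17 of 28 and lower in 2 (median 0.22). Fbln5, which guides elastic fibre assembly, rose from 111, 103 and 112 CPM to 263, 266 and 250 CPM, 2.38-fold higher. Ltbp1, which holds latent TGF-β in the matrix, was 1.94-fold higher, and Fbn1, the microfibril backbone, 1.24-fold lower.

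Proteoglycan and matricellular genes were higher in 15 of 27 and lower in 9 (median 0.33). The small leucine-rich proteoglycans Lum and Fmod, which regulate collagen fibrils, were 1.96-fold and 1.58-fold higher. The hyaluronan synthase gene Has2 fell from 62.2, 61.4 and 62.1 CPM to 42.7, 43.5 and 42.7 CPM, 1.44-fold lower, and Vcan, a proteoglycan that binds hyaluronan, was 1.27-fold lower. Fn1, fibronectin, was 1.26-fold lower from a control mean of 3782 CPM. Of 28 metalloproteases and TIMPs 14 were higher and 7 lower. Mmp13, a collagenase, was 2.52-fold higher and Adamts9 1.83-fold higher, and the inhibitors Timp3 and Timp4 were 1.41-fold and 1.86-fold lower. Of 19 contractile genes 12 were higher and none lower, with a median of 0.10. Myl9, the regulatory light chain of myosin, was 2.73-fold higher at 4.17, 3.84 and 4.84 CPM against 10.7, 11.9 and 12 CPM, and the tropomyosins Tpm4 and Tpm1 were 1.43-fold and 1.31-fold higher. Of 15 YAP targets 8 were higher and 3 lower. The shared target of YAP and SRF Ctgf was described above, and Cyr61, its relative, was 1.42-fold higher.

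Signalling genes included several secreted factors and antagonists. Of 19 Wnt receptors, antagonists and targets 11 were higher and 5 lower (median 0.21). Sfrp2, a secreted Wnt antagonist, rose from 27.3, 25.7 and 26.5 CPM to 57, 56.4 and 55.3 CPM, 2.11-fold higher. The R-spondins Rspo3 and Rspo2, which amplify Wnt signals, were 4.75-fold and 1.88-fold higher, and Ror1, a Wnt5a receptor, 1.7-fold higher. Fzd9, a Wnt receptor, was 8.89-fold lower from a control mean of 1.24 CPM and Lef1, a nuclear effector, 1.3-fold lower. In the TGF-β and BMP pathway 11 of 29 were higher and 8 lower, against 28.3% and 27.4% of all genes. Tgfb3 was 1.59-fold higher, Tgfb2 1.49-fold higher and Inhbb, an activin subunit, 1.74-fold higher. Gdf10, a divergent BMP, fell from 3.77, 3.84 and 3.39 CPM to 0.354, 0.392 and 0.298 CPM, 10.8-fold lower. Acvrl1, a type I receptor for BMP9, was 2.05-fold lower and Chrd, a BMP antagonist, 1.82-fold lower.

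Feedback genes of the ERK pathway were higher in more members than were lower, with 17 of 27 immediate early and feedback genes higher and 3 lower (median 0.28). Spry1, an inhibitor of receptor tyrosine kinase signals, rose from 5.46, 5.25 and 5.25 CPM to 14.6, 12.5 and 13.1 CPM, 2.51-fold higher. Dusp4, a phosphatase of ERK, was 2.14-fold higher, Etv4, an ETS factor, 2.1-fold higher and Egr1, an early growth response factor, 1.84-fold higher. Spry2 was 1.27-fold lower and lies on chromosome 14 beyond Ripk3. Axon guidance genes, many of which also act in fibroblasts, were higher in 19 of 47 and lower in 15. For all genes these shares were 28.3% and 27.4%. Slit2, a ROBO ligand, rose from 79.8, 85.4 and 85.4 CPM to 256, 262 and 255 CPM, 3.09-fold higher (log2 fold change 1.60 ± 0.03, adjusted p = 2.12e-20), and Sema3c was 1.71-fold higher, both on chromosome 5. Efna5, an ephrin, was 2.11-fold higher and its receptor Epha4 1.67-fold lower.

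Genes that record lineage and epigenetic state also differed. Homeobox and T-box factors were lower in 23 of 42 and higher in 6 (median -0.16), against 27.4% of all genes called lower. The trunk HOXB genes Hoxb5, Hoxb6, Hoxb8 and Hoxb9 were lower by 2.48-fold, 2.09-fold, 6.31-fold and 8.38-fold, and Hoxb9 went from 1.87, 1.72 and 1.7 CPM to 0.157, 0.218 and 0.244 CPM. Hoxa10, given above, was higher. Among imprinted genes 5 of 16 were higher and 7 lower, against 28.3% and 27.4% of all genes. Peg3, a paternally expressed zinc finger gene, fell from 248, 249 and 265 CPM to 100, 99.4 and 96.8 CPM, 2.57-fold lower (log2 fold change -1.39 ± 0.03, adjusted p = 3.1e-19), and its neighbour Usp29 was 2.21-fold lower. Grb10, an adaptor that dampens insulin signals, was 4.67-fold lower, and Plagl1, a zinc finger growth regulator, 2.7-fold lower. H19, a maternally expressed long RNA, was 1.67-fold higher. Ion channels were higher in 13 of 50 and lower in 16, shares near those of all genes. Their largest fall was in Hcn2 (4.42-fold), a pacemaker channel, from a control mean of 0.515 CPM. Cadherins and protocadherins were higher in 16 of 42 and lower in 9. Of the 42, 31 lie on chromosomes 5 and 18, and they hold 13 of the 16 higher and 6 of the 9 lower genes. Clustered protocadherins share sequence between members.

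Cytosolic ribosomal protein genes were lower by a small amount. Of 77 tested 67 were lower and 2 higher, with a median log2 fold change of -0.29. Rps27 stood at 598, 501 and 423 CPM in control and at 220, 364 and 327 CPM in knockout libraries, 1.69-fold lower (log2 fold change -0.76 ± 0.11, adjusted p = 4.03e-06), and Rpl23 was 1.3-fold lower. These genes have many processed pseudogenes, so their counts depend on how shared reads were assigned. Ribosome biogenesis genes were higher in 5 of 24 and lower in 3, led by the snoRNP proteins Nop58 and Nop56 (1.16-fold and 1.14-fold higher). Respiratory chain genes were higher in 17 of 71 and lower in 12, both under the shares of all genes. Genes of the integrated stress response were lower in 16 of 36 and higher in 10. Ddit3 (CHOP), a factor of the terminal response, fell from 53.2, 54 and 48.4 CPM to 34.6, 37 and 37.1 CPM, 1.43-fold lower, and its target Trib3 was 1.49-fold lower. Psat1 and Phgdh of serine synthesis were 1.36-fold and 1.24-fold higher. Antioxidant genes were higher in 14 of 26 and lower in 4, with Prdx1, a peroxiredoxin, 1.2-fold and Hmox1, heme oxygenase, 1.19-fold higher. Clock genes were higher in 7 of 15 and lower in 3. Hlf, a PAR-domain output factor, was 5.5-fold higher from 0.316, 0.377 and 0.0807 CPM to 1.46, 1.7 and 1.38 CPM, and Nfil3, its antagonist, 1.39-fold lower. The other 14 lists held 308 genes tested, of which 91 were higher and 74 lower, shares near those of all genes.

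The differences were not spread evenly over the genome. On chromosome 5, 513 of 775 genes tested were higher and 75 lower, with a median log2 fold change of 0.26, and on chromosome 18, 194 of 310 were higher and 24 lower, with a median of 0.20. Over all chromosomes other than 5, 14 and 18 the counts were 2365 higher and 2750 lower of 9590, with a median of -0.02. Of the reads in tested genes, the part that fell on chromosome 5 was 5.62%, 5.6% and 5.6% in the control libraries. In the knockout libraries it was 6.71%, 6.71% and 6.7%. For chromosome 18 it was 2.13%, 2.15% and 2.15% against 2.43%, 2.45% and 2.43%. The 3 libraries of a group differed from each other by far less than the groups did.

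The shift ran along the whole length of both chromosomes. In windows of 5 Mb with at least 8 genes, the median was above 0 in 25 of 25 windows of chromosome 5, from 0.11 to 0.54, and in 14 of 14 windows of chromosome 18, from 0.13 to 0.35. Chromosomes 12 and 8 came next, with medians of 0.11 and 0.10 and 18 of 19 and 20 of 22 windows above 0. A median log2 fold change of 0.26 is a 1.2-fold difference, so genes of chromosome 5 with differences of this size, such as Pgam5 and Clock (1.24-fold and 1.32-fold higher), are near the median of their chromosome. The files used here hold RNA only, and the number of copies of these chromosomes was not measured.

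**Figure D3:**
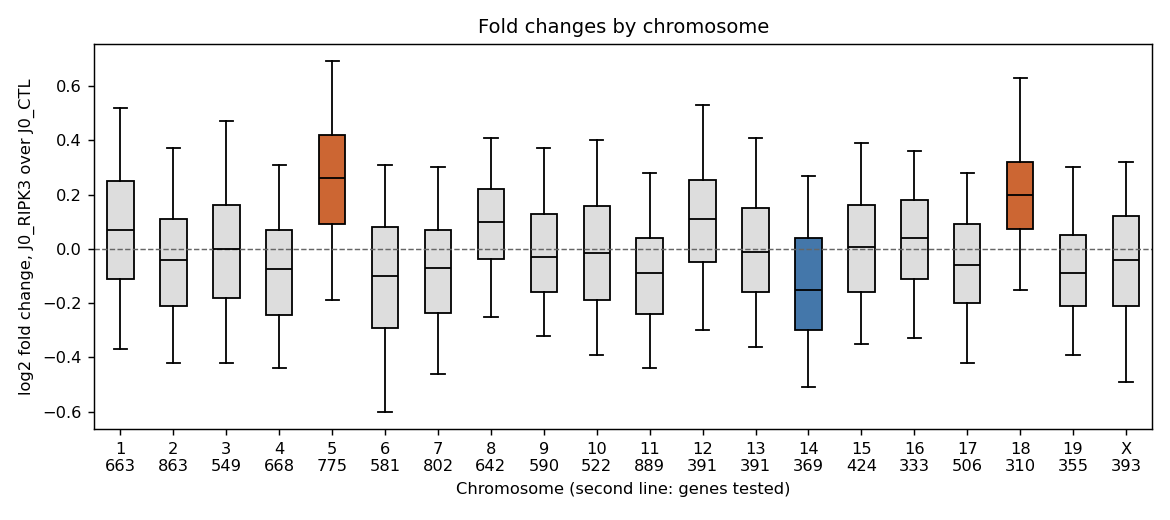
Log2 fold change, knockout over control, of the genes tested on each chromosome: lines in the boxes are medians, boxes run from the first to the third quartile, and whiskers from percentile 10 to percentile 90. The medians of chromosomes 5 and 18 (orange) lie highest at 0.26 and 0.20, and that of chromosome 14 (blue) lowest at -0.15.

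Chromosome 14, which carries Ripk3, differed between the sides of that gene. Proximal to Ripk3, 38 of 195 genes were higher and 63 lower (median -0.05), and distal to it 19 of 173 were higher and 117 lower (median -0.23), with 78.6% called and 16.8% of log2 fold changes above 0. The distal part held 1.28%, 1.29% and 1.3% of reads in the control and 1.1%, 1.09% and 1.1% in the knockout libraries, whereas the proximal part held 1.53% to 1.54% and 1.49% to 1.5%. Splitting the chromosome at Ripk3 was chosen after the values were seen. Within 5 Mb the medians were -0.07 over 56 proximal genes, of which 7 were higher and 20 lower, and -0.38 over 27 distal genes, of which 1 was higher and 22 lower.

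The proximal side was not at one level. Between 15 and 10 Mb from Ripk3 the median was -0.39 at J0 over 17 genes, 10 of them lower and none higher, and -0.02 at J7. The 4 tested genes nearest to Ripk3 on that side had log2 fold changes of 0.07 for Nop9, 0.26 for Tinf2, 0.04 for Nedd8 and -0.18 for Tm9sf1, of which Tinf2 was called higher and Tm9sf1 lower. The 4 nearest on the distal side were all called lower, and Cbln3 had a log2 fold change of -0.39. Nfatc4, a calcium-regulated transcription factor, fell from 207, 210 and 211 CPM to 155, 141 and 153 CPM, 1.39-fold lower. Next to it, Nynrin stood at 114, 112 and 116 CPM against 85.5, 85.3 and 88.6 CPM, and Khnyn at 66.1, 71.7 and 69.9 CPM against 52.3, 48.7 and 52.6 CPM, without overlap in either case. The number of neighbours named was chosen after their values were seen. By the rule for genes near Ripk3, 4 called genes within 5 Mb had an absolute log2 fold change over 1. Emc9, a subunit of the membrane protein insertion complex, was 2.12-fold lower at 9.34, 8.78 and 10.5 CPM against 4.37, 4.92 and 4.28 CPM. Phf11b and Phf11d, which are interferon-stimulated, were 3.08-fold and 3.42-fold lower, and Cmtm5 stood at 0.489, 0.583 and 0.484 CPM against 0.0394, 0 and 0.0271 CPM.

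**Figure D4:**
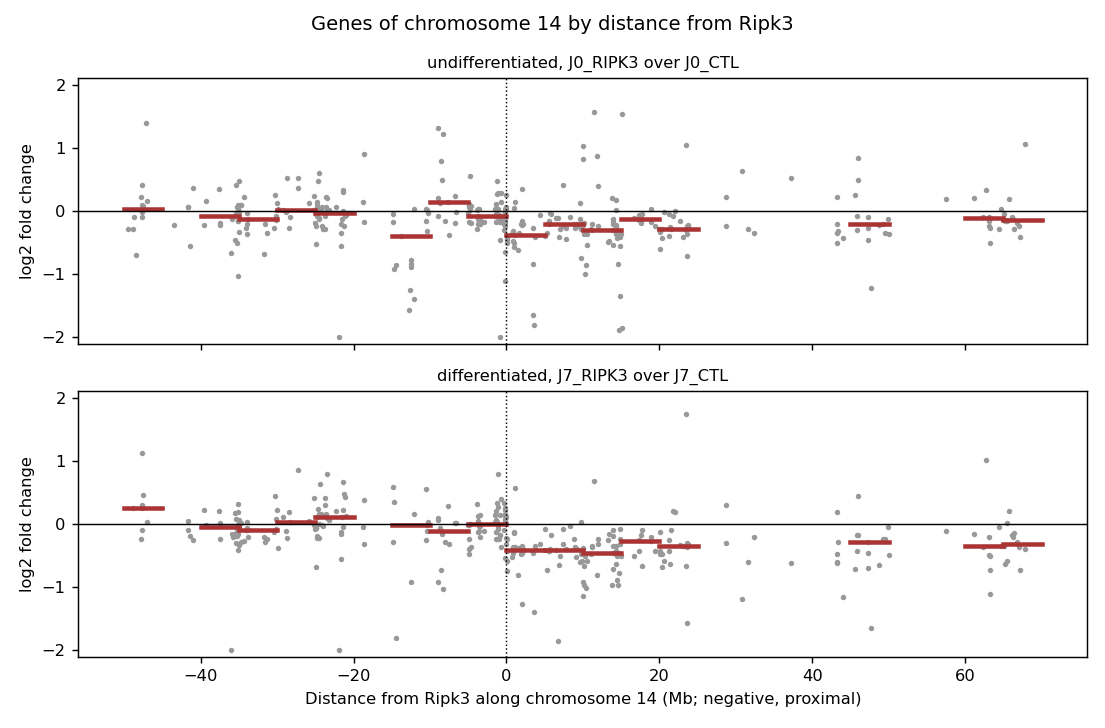
Log2 fold change of genes on chromosome 14 against their distance from Ripk3 in Mb, negative toward the centromere, for undifferentiated and differentiated cells, with values limited to 2 in either direction and red lines at the medians of 5 Mb windows. Window medians ran from -0.39 to 0.15 proximal to Ripk3 and from -0.38 to -0.11 distal to it at J0, and from -0.11 to 0.25 and from -0.46 to -0.27 at J7.

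The same genotype contrast was made in differentiated cells with 6 other libraries, titled J7RIPK3 and J7CTL. The labels conflict there, because libraries titled J7RIPK3 carry the genotype MLKL-/- and those titled J7 MLKL carry RIPK3-/-, and titles were used. At J7, 59.1% of 11170 genes tested were called, 29.6% higher and 29.5% lower. The difference between the contrasts, tested as an interaction, was called for 39.0% of 11027 genes, 2028 (18.4%) with a larger and 2270 (20.6%) with a smaller value at J7. Of the genes higher at J0 and tested at J7, 1333 of 2769 were higher at J7 too, 616 were lower and 820 were not called. Of the genes lower at J0, 1278 of 2569 were lower at J7 too, 323 were higher and 968 were not called.

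The chromosome pattern was present in both states. At J7, 25 of 25 windows of chromosome 5 and 14 of 14 of chromosome 18 had a median above 0, and the chromosome medians were 0.38 and 0.29. Chromosome 5 held 5.46% to 5.49% of reads in J7CTL and 7.03% to 7.07% in J7RIPK3 libraries. These J7 shares are over the genes tested at J0 that had counts in all libraries of both contrasts, a smaller set than for the J0 shares. Distal to Ripk3, 128 of 163 genes were lower and 6 higher at J7 (median -0.40), and proximal to it 50 of 175 were lower and 47 higher (median -0.02). Ripk3 itself had a log2 fold change of -0.73 at J7 and of -0.22 at J0 (interaction -0.51, adjusted p = 0.00117). The J7 contrast shares no library with the J0 contrast.

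The replication and mitosis genes took opposite signs in the 2 states. Of 166 such genes with values in both, 150 were above 0 at J0 and below 0 at J7. The J7 medians were -0.39 for replication, -0.58 for mitotic kinases and -0.63 for spindle genes, and the interaction was called lower for 41 replication genes and higher for 1, Rfc1. For Mki67, the log2 fold change was 1.35 at J0 and -0.83 at J7 (interaction -2.18, adjusted p = 1.44e-16), and for Top2a it was 1.26 and -0.82 (interaction -2.09, adjusted p = 3.57e-19). The antiviral list had a median of -0.58 at J0 and of -0.09 at J7, with the interaction called higher for 23 genes and lower for 4. The class I presentation list had medians of -0.33 and -0.39, with 16 of 21 genes lower and 3 higher at J7 and the interaction called higher for 6 and lower for 5. Of 67 interferon genes with values in both states, 41 were below 0 in both and 18 were below 0 at J0 and above 0 at J7. Ifit1 was at -2.16 and 0.47 (interaction adjusted p = 0.000149), whereas Ifih1 was at -2.61 and -2.07 (interaction adjusted p = 0.106). The sterol synthesis median was 0.54 at J0 and 0.06 at J7, and the interaction was called lower for 16 genes and higher for 1, Cyp51, which was at 2.23 at J7 (interaction adjusted p = 1.29e-09). Among matrix genes, Col8a1 was at 1.84 and -1.06 and Fbln5 at 1.24 and -0.12 (interaction adjusted p = 9.76e-13 and 4.27e-13). The ribosomal protein genes were mostly lower in both states, with 59 of 76 lower and 5 higher at J7 (median -0.18). For these genes the interaction was called higher for 18 and lower for 1.

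**Figure D5:**
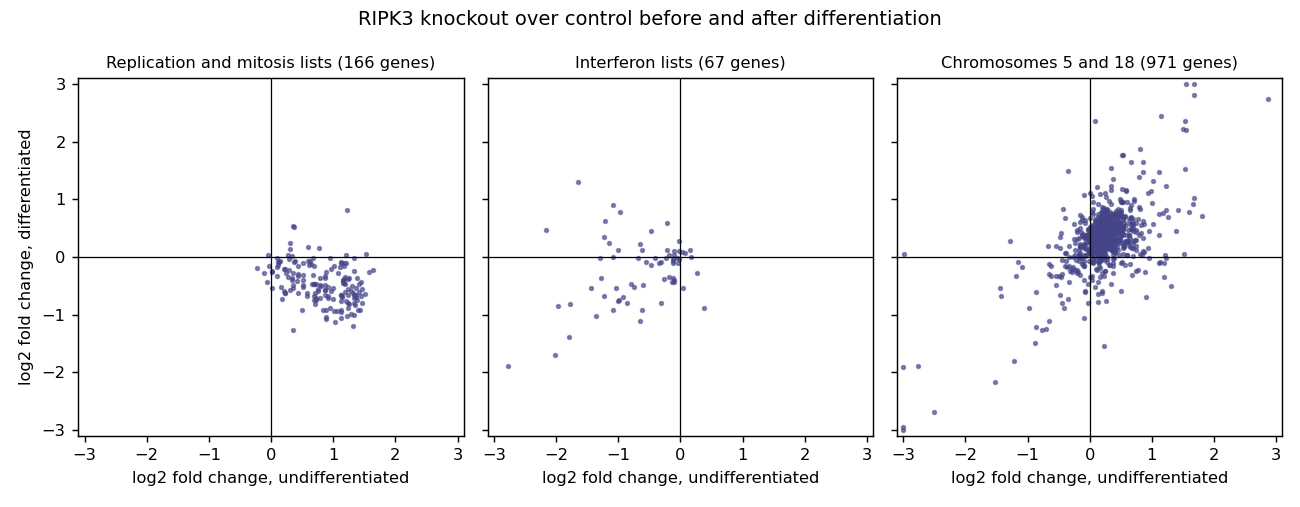
Log2 fold change, RIPK3 over control, in differentiated (vertical axis) against undifferentiated cells (horizontal axis), 1 point per gene, with a panel each for the replication and mitosis lists, the interferon lists and chromosomes 5 and 18, and values limited to 3 in either direction. Replication and mitosis genes lie at lower right (150 of 166), and genes of chromosomes 5 and 18 at upper right (763 of 971).

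MLKL-/- cells at J0 served as the other knockout. Counts for these libraries were used for 3455 tested genes, which the authors had called in some comparison of MLKL-/- cells, and 66.5% differed between J0RIPK3 and J0MLKL libraries in the direct test, 33.4% higher and 33.1% lower in J0RIPK3. The levels below are CPM, those of the MLKL-/- cells as mean ± SD (n = 3). Cdc6 was at 2.43 ± 0.337 in MLKL-/- and at 7.81 ± 0.666 in RIPK3-/- cells, a log2 difference of 1.64 (adjusted p = 6.84e-05), and Rrm2 at 18.2 ± 0.574 and 56.7 ± 0.634. Cyp51 was at 34 ± 0.896, a difference of 1.17 (adjusted p = 5.65e-06). For the antiviral list the direct test called 10 of 37 higher and 10 lower. Ifit1 was at 7.36 ± 0.122 in MLKL-/- and at 7.92 ± 1.72 in RIPK3-/- cells (difference 0.07, adjusted p = 0.705), and Mx1 was at 3.56 ± 0.852 in MLKL-/- cells (difference -1.70, adjusted p = 0.000966). Kcnc2 was higher in MLKL-/- cells, at 31.9 ± 7.96 (difference -2.19, adjusted p = 5.24e-05). Ddx60 was at 1.89 ± 0.85 (difference 0.18, adjusted p = 0.682). Of the 10 genes with the largest falls against control, all but Ugt2b5 also had a lower mean in MLKL-/- than in control cells. Adcy1 was at 0.0534 ± 0.0285 in MLKL-/- cells. Ugt2b5 was at 5.12 ± 1.1 there, against a control mean of 2.43 (difference -5.19, adjusted p = 1.23e-05).

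By chromosome, the median of RIPK3-/- over MLKL-/- was 0.64 on chromosome 18, with 118 of 137 genes higher and 4 lower. On chromosome 5 it was 0.08, with 72 of 220 higher and 46 lower. On chromosome 14 it was 0.25 over 46 genes proximal to Ripk3 and 0.10 over 48 genes distal to it. Medians of chromosomes other than 5, 14 and 18 ran from -0.33, as on chromosome 9, to 0.28 on chromosome 4. The values of chromosomes 5 and 14 lie within that range. These contrasts share the J0RIPK3 libraries with the comparison against control, so the values are given side by side and not as independent support.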

How the data were processed

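The 6 libraries titled J0RIPK3 and J0CTL were compared, with the J7RIPK3, J7CTL and J0MLKL libraries beside them. Per the submitters' processing notes, reads were checked with FastQC 0.11.9, aligned with HISAT2 to mm10, counted with featureCounts 1.5.0-p3 and tested with DESeq2. Other settings, strand and the handling of shared reads are not given in the sources used here. The authors deposited raw read counts per gene, FPKM values and size-factor normalised counts (a signal never below 0), with log2 fold changes, p-values and adjusted p-values of their own tests, per the file headers. Of these, 36 columns of normalised counts of other comparisons were not used. The authors' log2 fold changes and p-values were used only where their deposited table is named.

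Counts were joined by gene identifier over the 7 comparison tables, and the 88950 values present in more than 1 table did not differ. Library totals were recovered from the deposited counts, FPKM values and gene lengths. CPM are counts over these totals, and folds are ratios of pooled counts. Tests used edgeR 4.0.16 in R 4.3.3 (filterByExpr, TMM, quasi-likelihood F test, two-sided) with p-values adjusted over all genes tested by the Benjamini-Hochberg method, and a call is an adjusted p under 0.05. DESeq2 1.42.0 was an alternative. Joining and summaries used Python 3.11.15 and pandas 2.3.3, and the fit was tested on simulated counts.

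Named genes are Ripk3 and Mlkl, the 10 highest and 10 lowest called protein-coding genes with at least 1 CPM in the higher group, up to 4 called members per list and direction, and called genes within 5 Mb of Ripk3 with an absolute log2 fold change over 1. A few genes that this rule names are not reported here. The libraries and lists were chosen with earlier results of these data known.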

Additional observations from a re-analysis of the deposited data

Results flagged for a closer look

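The following results differed between undifferentiated and differentiated cells by a test of the difference itself, edgeR's interaction test over 11027 genes. It was called for 4298 genes. In 11 lists, at least 8 members were called in opposite directions in the 2 states with the difference called as well. Long lists reach this cut more easily. Of all genes called higher at J0 and tested at J7, 616 of 2769 were called lower at J7. Of those called lower at J0, 323 of 2569 were called higher at J7. These 2 background counts do not require the difference to be called. Of members tested in both states, these were 34 of 42 DNA replication genes and 15 of 27 cyclins, CDKs and E2F factors. They were 15 of 22 mitotic kinases and checkpoint genes, 19 of 29 kinetochore genes and 19 of 26 spindle and cytokinesis genes. Condensin, cohesin and S phase chromatin genes gave 15 of 20, and homologous recombination and Fanconi genes 13 of 19. Outside the cell cycle, 10 of 26 collagen chains and 8 of 24 metalloproteases and TIMPs did so. So did 8 of 18 contractile and SRF targets and 10 of 36 genes of the integrated stress response. For Ctgf, among the 10 genes with the largest rise at J0, the log2 difference at J7 minus that at J0 was -1.72 (adjusted p = 0.0354). Its mean at J7 was only 0.169 CPM in J7CTL and 0.395 CPM in J7RIPK3 libraries. Ctgf was not tested in the J7 contrast alone, and its interaction value rests on few reads at J7. The conflict between titles and genotype labels at J7 bears on each of these values, and why the states differ was not tested.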

How the results depend on the processing

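The comparison J0_RIPK3 vs J0_CTL was refitted under 15 alternatives, and it called 4796 to 6221 genes (5664 to 5875 with 1 library left out) against 6159. The J7 contrast called 6057 to 6677, the interaction 3982 to 4431 and the contrast with J0MLKL 1903 to 2708. Of 406 named genes, 356 stayed on the same side of the threshold in every alternative, 48 lost the call in at least 1 and none reversed. With the replicate number as a block, 6040 genes were called. Deviations of same-numbered libraries correlated at -0.021, -0.031 and 0.019 over 8988 genes, so the numbers did not pair the libraries. Using only genes listed for both differentiation contrasts tests fewer genes. It left 29 replication genes higher (45 in the full fit), 16 cyclins, CDKs and E2F factors (26), 15 kinetochore genes (29), 8 repair genes (22) and 3 ribosome biogenesis genes (5). It left 3 necroptosis genes lower (5), 6 interferon receptors and regulators (11), 7 GTPases (11) and 10 ion channels (16), whose median reversed from -0.06 to 0.00. Ribosome biogenesis genes called higher numbered 11 with library totals alone and 9 with the authors' size factors. The median of chromosome 5 (0.26) was 0.28, 0.27 and 0.24, and that of chromosome 18 (0.20) 0.22 and 0.22, with library totals alone, the authors' size factors and, for chromosome 5, genes of both differentiation tables. In the same order, chromosome 14 proximal to Ripk3 (-0.05) gave -0.03, -0.03 and -0.03, and distal to it (-0.23) -0.21, -0.21 and -0.22. The proximal value was -0.03 at a mean of at least 50 counts and -0.04 with the replicate block. With 1 library left out, 3 to 5 necroptosis genes were lower, and the medians ran from 0.18 to 0.20 on chromosome 18, from -0.06 to -0.03 proximal and from -0.24 to -0.23 distal to Ripk3. The cause of these shifts was not tested beyond the number of genes. Of 645 list medians recomputed, 1 reversed, and the largest shift was 0.35, for the OAS list without J0_RIPK3 replicate 3. At CPM values under 0.1 a library holds only a few reads, which limits the folds of the genes switched nearly off.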

Other observations

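The counts here stand against 28.3% of all genes tested called higher and 27.4% called lower. Of 32 genes of glycolysis and the hypoxia response, 13 were higher and 11 lower (median log2 fold change 0.09). Of 19 TCA cycle genes 9 were higher and 3 lower (0.03). Of 72 mitochondrial ribosomal protein genes, 58 were not called, 4 were higher and 10 lower (-0.03), both under the shares of all genes. Of 19 endoplasmic reticulum chaperones, 3 were higher and 7 lower (-0.05). Integrins, the cell's receptors for matrix, were higher in 6 of 15 and lower in 1 (0.02), and laminins and other basement membrane genes were higher in 6 of 18 and lower in 7 (-0.03).

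Apart from chromosomes 5 and 18, 2 of the 5 Mb windows had a median below -0.5 with no gene called higher. On chromosome 2, the window from 175 to 180 Mb (mm10) held 29 genes tested, of which 22 were lower, with a median log2 fold change of -0.53 at J0 and -0.10 at J7. It holds a cluster of zinc finger genes that are close copies of each other, so how shared reads were counted bears on it. Zfp970 was 40.4, 40.3 and 40.7 CPM in control and 29.6, 28.3 and 28.7 CPM in knockout libraries, 1.4-fold lower (edgeR adjusted p = 8.05e-09), and Zfp931 was 1.39-fold lower. The control and knockout libraries did not overlap for either gene. On chromosome 14, the window from 40 to 45 Mb held 12 genes tested, of which 8 were lower, with a median of -0.84 at J0 and -0.06 at J7. Zfp970 and Zfp931 were chosen after their values were seen.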
